A study of Drosophila melanogaster with 18 samples.

Results

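The amylase, maltase and alpha-mannosidase genes were followed in Drosophila melanogaster switched to a banana diet and compared with animals on cornmeal, the control diet. A probe was taken when its only annotated gene was Amy-p, Amyrel or Mal-A5, or had a symbol beginning with LMan. The rule found 5 of the 5620 probes on the array, 1 for each of 5 of the 4574 named genes: Amy-p, Amyrel, Mal-A5, LManII and LManV. All 5 had a value in all 18 columns of the deposited table, so no filter on missing spots removed any of them. They were among 4723 rows tested, a row being a named gene or an unnamed probe.

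Total RNA of the banana and cornmeal animals was hybridised together on 6 2-colour slides, each with 3 sets of replicate spots. On slides 2, 30 and 28 the banana RNA was in channel 1, and on slides 3, 29 and 25 the cornmeal RNA was in channel 1. Each slide had a dye-flip partner, giving pair 1 (slides 2 and 3), pair 2 (slides 30 and 29) and pair 3 (slides 28 and 25). Each flip pair counted as 1 replicate (n = 3). Separate cultures for the pairs are not named in the labels, so p-values reflect variation among 3 pairs that may be technical repeats. Stage, sex, strain, tissue and the length of the diet are not given in the sources used here.

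Alpha-amylases cut starch inside its glucose chains, and maltases then release glucose from the ends of the fragments and from sucrose. In Drosophila the Amy locus carries neighbouring, near-identical copies, Amy-p and Amy-d, and amylase in the midgut is a classical case of repression by dietary glucose. Lysosomal alpha-mannosidases, the family to which the LMan genes are assigned, remove mannose from the sugar chains of glycoproteins during their breakdown. The comparison asked whether transcripts of these carbohydrate-cleaving enzymes differed between a starchy diet and a fruit diet.

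LManV had the largest mean ratio of the 5 genes, with a single sign on 6 of 6 slides and a mean 5.12-fold difference between the diets. Amy-p had a mean 2.05-fold difference that came from pairs 1 and 3, and lay at 1.02-fold in pair 2. Amyrel, Mal-A5 and LManII had means of 1.02-fold to 1.05-fold, with both signs among the slides of each gene. None of the 5 passed an adjusted p of 0.05 in limma, where 0% of the rows passed. Folds rest on the deposited log ratios being log2, an inference that their range does not settle.

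Which channel is the numerator of the deposited ratio is not given in the labels. The sign of the 3 slides with cornmeal RNA in channel 1 was turned, so every sign below is that of a slide carrying banana RNA in channel 1. A positive ratio is more transcript on banana with channel 1 as numerator, and more on cornmeal with channel 2 as numerator, so neither diet is named as the higher. Before turning, the slides of a pair correlated negatively over the 4723 rows, with Pearson's r of -0.20 in pair 1, -0.38 in pair 2 and -0.09 in pair 3 (across rows, which are not independent replicates). Of the rows over 1 in size on both slides of a pair, 109 of 160 had opposite signs in pair 1, 116 of 133 in pair 2 and 88 of 128 in pair 3. Once turned, slides of different pairs correlated with r from -0.19 (slides 2 and 25) to 0.27 (slides 29 and 25). The turned partners of pair 3 had an r of 0.09. This was below the 0.27 of slides 29 and 25 and the 0.19 of slides 30 and 28, each sharing an orientation across pairs.

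LManV is 1 of 6 genes of its family in the reference gene table and 1 of 2 with a probe named for it alone. Its deposited log ratios on slide 2 were 3.45, 4.04 and 4.20 in the 3 spot sets, and on its flip partner, slide 3, they were -3.66, -3.47 and -3.06. On slide 30 they were 1.09, 1.73 and 1.42, and on slide 29 they were -1.25, -1.10 and -0.60. On slide 28 they were 0.89, 1.29 and 1.95, and on slide 25 they were -3.24, -3.14 and -2.58. All 9 spots with banana RNA in channel 1 were above 0 and all 9 with cornmeal RNA in channel 1 were below it, so the ratio turned with the flip in every pair.

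Centred on the slide median but not turned, LManV lay between 1.45 and 3.90 on the slides with banana RNA in channel 1 (2.29 ± 1.39, SD, n = 3). It lay between -3.20 and -1.14 on those with cornmeal RNA in channel 1 (-2.42 ± 1.12, SD, n = 3). The groups were separated by a gap of 2.59. With partners kept together, the exact sign permutation test over the 3 pairs gave p = 0.25, the smallest that 3 pairs allow. Orientation groups without overlap were found for 15.8% of rows, and for 2 of the 5 genes, LManV and Amy-p.

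**Figure D1:**
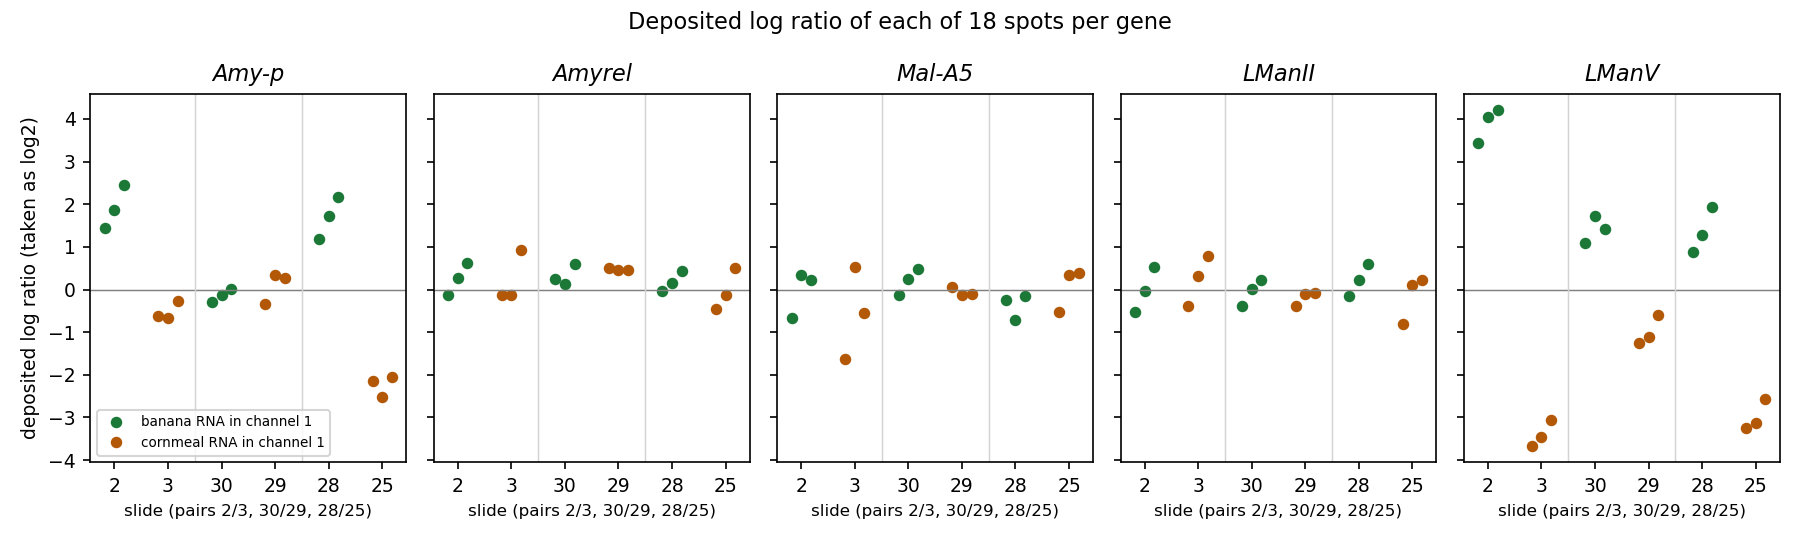
Deposited log ratio, taken as log2, of each of the 18 spots of the 5 genes, by slide, with flip partners side by side and the spot sets of a slide from left to right. The vertical axis is the ratio before centring and turning, and colour gives the RNA in channel 1. LManV changed sign between the slides of every pair, Amy-p did so in pairs 2/3 and 28/25, and Amyrel, Mal-A5 and LManII lay between -1.63 and 0.94 with spots on both sides of 0 in both orientations.

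The pair ratios of LManV, the means of both turned slides, were 3.55 in pair 1, 1.34 in pair 2 and 2.19 in pair 3. These correspond to 11.7-fold, 2.52-fold and 4.55-fold. Pair 1 was the highest and pair 2 the lowest, and all 3 lay over 1. The mean was 2.36 ± 1.12 (SD, n = 3), with a limma 95% interval of 1.10 to 3.61, or 2.14-fold to 12.2-fold. This mean was the third largest in size of the 4723 rows, ranking 3, while its p-value ranked 70. The unadjusted limma p was 0.00624 and the adjusted p was 0.411.

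A mean over 1 in size was found for 1.74% of rows, and for 2 of the 5 genes, LManV and Amy-p. An unadjusted p under 0.05 was found for 8.05% of rows and for 1 of the 5 genes, LManV. A single sign on all 6 slides was found for 6.65% of rows and for 1 of the 5 genes, again LManV. A single sign in all 3 pairs was found for 30.5% of rows and for 2 of the 5 genes, LManV and Amy-p. All 5 means were positive, against 50.1% of rows, but the median over the 5 genes was 0.07, against 0.00 over all rows, and 3 of the means lay within 0.08 of 0. The 5 genes were chosen with earlier results of these data known, so these shares describe them and test nothing.

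Amy-p encodes the alpha-amylase of the proximal copy of the Amy locus. Its deposited log ratios were 1.44, 1.85 and 2.45 on slide 2, and -0.62, -0.67 and -0.28 on slide 3. They were -0.30, -0.12 and 0.01 on slide 30, and -0.35, 0.34 and 0.26 on slide 29. They were 1.18, 1.73 and 2.16 on slide 28, and -2.14, -2.52 and -2.04 on slide 25. As deposited, the spots of pairs 1 and 3 lay on opposite sides of 0 in the opposite orientations. Those of pair 2 lay on both sides of 0 in both orientations. Minus the median of its set (-0.69), the spot of set 1 on slide 3 moved from -0.62 to 0.07, the side of slide 2. The others of slide 3 stayed below 0, at -0.42 and -0.55, so pair 1 did not turn in every spot once centred.

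The turned and centred slide values of Amy-p were 1.91 and 0.33 in pair 1, -0.02 and 0.07 in pair 2, and 1.77 and 2.17 in pair 3. Its pair ratios were 1.12, 0.02 and 1.97, or 2.17-fold, 1.02-fold and 3.91-fold. Pair 3 was the highest, pair 2 was at 0 within the difference between its slides, and 5 of 6 slides were positive. The mean of 1.04 ± 0.97 (SD, n = 3) had a limma 95% interval of -0.07 to 2.14, which includes 0 (unadjusted p = 0.0598, adjusted p = 0.634). Its size depended on the pairs averaged, and was 0.57 without pair 3, 1.00 without pair 1 and 1.54 without pair 2. By size it ranked 78 of the 4723 rows and by p-value 445.

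Before turning, Amy-p lay between -0.02 and 1.91 with banana RNA in channel 1 and between -2.17 and -0.07 with cornmeal RNA in channel 1. The groups were apart by only 0.048 (exact sign permutation test over pairs, p = 0.25, the smallest possible). The near-identical copy Amy-d had no probe named for it alone. Probe sequences were not used here, so whether the Amy-p spots also took up Amy-d transcripts was not tested.

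**Figure D2:**
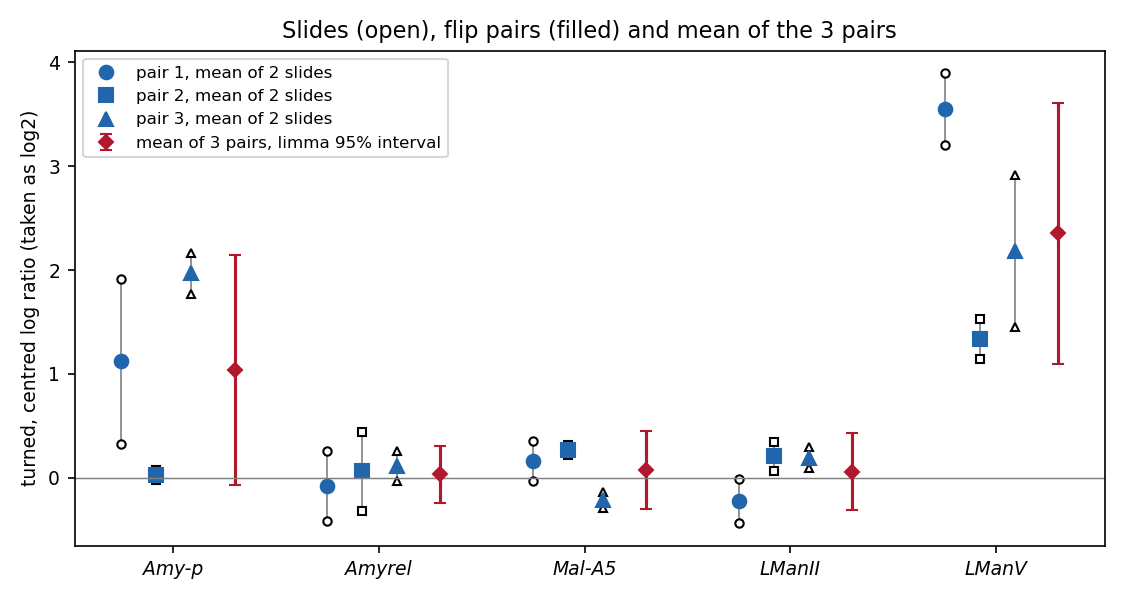
Turned and centred log ratio, taken as log2, of the 5 genes. Open symbols are slides, filled symbols are flip pairs, and diamonds with bars are the mean of the 3 pairs with its limma 95% interval. The interval of LManV runs from 1.10 to 3.61 and that of Amy-p from -0.07 to 2.14, while Amyrel, Mal-A5 and LManII have means from 0.03 to 0.07.

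Amyrel encodes an amylase-related protein, a diverged relative of the Amy enzymes. Once turned, its slides stood at 0.26 and -0.42 in pair 1, 0.44 and -0.32 in pair 2, and 0.26 and -0.04 in pair 3. The slide with banana RNA in channel 1 was positive and its partner negative in every pair, which is a ratio that did not turn with the flip. Its diet ratio was 0.03 ± 0.101 (SD, n = 3), with a limma 95% interval of -0.25 to 0.31 (adjusted p = 0.949). Over these 3 pairs, which may be technical repeats, the interval bounds the ratio at 1.24-fold in either direction.

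The channel effect, the component that keeps its sign under the flip, was taken as the mean of the unturned slides of a pair. For Amyrel it was 0.34 in pair 1, 0.38 in pair 2 and 0.15 in pair 3, with a mean of 0.29 ± 0.123 (SD, n = 3). Its unadjusted limma p was 0.043 and its adjusted p 0.526. An unadjusted p under 0.05 was found for 9.19% of rows and for Amyrel alone among the 5 genes, and 0% of rows passed the adjusted threshold. Channel effects of the other genes were 0.18 for Amy-p, -0.07 for Mal-A5, 0.06 for LManII and -0.06 for LManV. Within single pairs they reached 0.79 for Amy-p in pair 1 and -0.73 for LManV in pair 3.

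Mal-A5 is 1 of 10 maltase genes of the Mal-A and Mal-B groups in the reference gene table and the only one with a probe named for it alone. Its slides, once turned, gave -0.03 and 0.35 in pair 1, 0.32 and 0.22 in pair 2, and -0.29 and -0.14 in pair 3. Pairs 1 and 2 averaged above 0, at 0.16 and 0.27, and pair 3 below it, at -0.21. The mean was 0.07 ± 0.254 (SD, n = 3), with a limma 95% interval of -0.31 to 0.45 (adjusted p = 0.916). Its spots repeated least well of the 5 genes, with deposited values of -1.63, 0.54 and -0.55 on slide 3.

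LManII had turned slide values of -0.01 and -0.44 in pair 1, 0.07 and 0.35 in pair 2, and 0.29 and 0.09 in pair 3. Pair 1 was negative, at -0.23, and pairs 2 and 3 were positive, at 0.21 and 0.19. The mean of 0.06 ± 0.246 (SD, n = 3) had a limma 95% interval of -0.31 to 0.43 (adjusted p = 0.933). It bounds the ratio over these pairs at 1.35-fold. For Mal-A5 the same bound was 1.37-fold.

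The 2 measured LMan genes differed in size of ratio on every slide. LManII minus LManV was -3.77 in pair 1, -1.13 in pair 2 and -1.99 in pair 3, a mean of -2.30 ± 1.35 (SD, n = 3). On the 6 slides the difference lay between -3.91 and -0.79. The exact sign permutation test over pairs gave p = 0.25, the smallest that 3 pairs allow, and 0.625 after adjustment over the 10 pairs of genes compared. Amyrel minus LManV was -2.33 ± 1.20 and Mal-A5 minus LManV -2.28 ± 1.16 (SD, n = 3 each), with the same exact p of 0.25 and a single sign on 6 of 6 slides.

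The 2 amylase-type genes did not show a single order in all pairs. Amy-p minus Amyrel was 1.20 in pair 1, -0.04 in pair 2 and 1.85 in pair 3, with a mean of 1.01 ± 0.96 (SD, n = 3). The exact sign permutation p was 0.5, and 0.714 after adjustment. Among Amyrel, Mal-A5 and LManII the mean differences lay between -0.04 and 0.02, below the spread between pairs.

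The ratios of LManV and Amy-p also varied between pairs. For LManV the pairs spanned 2.21 (limma F test against the difference between slides of a pair, unadjusted p = 0.0371, adjusted p = 0.495). For Amy-p they spanned 1.94 (unadjusted p = 0.0457, adjusted p = 0.532). An unadjusted p under 0.05 in this test was found for 9.15% of rows and for these 2 of the 5 genes. An adjusted p under 0.05 was found for 0.106% of rows and for none of the 5 genes.

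Both genes were lowest in pair 2, but they were ordered differently otherwise, with LManV highest in pair 1 and Amy-p highest in pair 3. The median size of a ratio over all rows was 0.207 in pair 1, 0.197 in pair 2 and 0.187 in pair 3, so by this median pair 2 was not low over the table. Cuticle genes also varied between pairs: 8 of 13 had an unadjusted F-test p under 0.05, against 9.15% of rows, and 1, TwdlF (5.78, 2.44 and -4.89 in pairs 1, 2 and 3), passed the adjusted threshold (limma F test, adjusted p = 0.0381), with list medians of -0.10, 0.60 and 0.16 in pairs 1, 2 and 3. Their part in the variation of LManV and Amy-p was not tested. The slides of a pair disagreed most for Amy-p in pair 1, by 1.59, and for LManV in pair 3, by 1.47. The median disagreement over all rows was 0.329 in pair 1 and 0.488 in pair 3.

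Repeat spots of a slide gave the spread within a hybridisation. Within a slide the column medians of the spot sets spanned 0.278 to 0.960. For LManV the SD over the 3 spot sets of a slide was 0.308 to 0.535 as deposited and 0.163 to 0.261 once each set was centred on its median. Centring did not narrow the spread everywhere, and for Amy-p the SD rose from 0.212 to 0.330 on slide 3 and from 0.252 to 0.456 on slide 25. For Amy-p the centred SD was 0.173 to 0.456, for Amyrel 0.045 to 0.294, for LManII 0.020 to 0.252 and for Mal-A5 0.041 to 0.967.

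**Figure D3:**
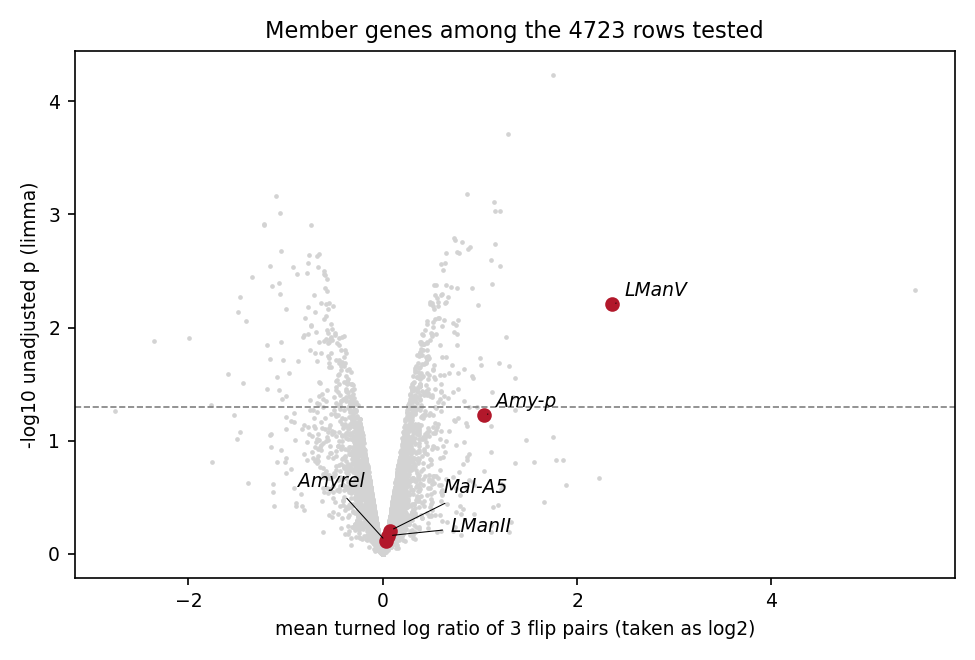
Mean turned log ratio of the 3 flip pairs, taken as log2, against the -log10 unadjusted limma p for the 4723 rows tested (grey) and the 5 genes (red). The dashed line marks an unadjusted p of 0.05. LManV lies above the line at 2.36, Amy-p just below it at 1.04, and the other genes lie at the foot of the plot.

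The positions of the genes were read from the Release 6 gene table, and no coordinates are given because no build is named for the probes. LManV and LManII lie on chromosome arm 2L, and Amy-p, Amyrel and Mal-A5 on 2R. LManIII, LManIV and LManVI are near neighbours of LManV, LManI is next to LManII, and Mal-A5 lies between Mal-A4 and Mal-A6. None of these relatives had a probe named for it alone, and cross-hybridisation between them was not tested.

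Of the 40 protein-coding genes within 4 places of a member on either side, 8 were tested. Their ratios lay between -0.39 (Cog4, near LManII) and 0.15 (CG46491, near Amy-p), and the smallest limma adjusted p was 0.784. SoxN, the 1 tested neighbour of LManV and a gene of a neural transcription factor, stood at -0.01.

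The genes most like LManV over the 6 turned slides were CG10962, dlg1, a scaffold gene of septate junctions, and Cyp9b2, a cytochrome P450 gene. Their root-mean-square differences from LManV were 1.19, 1.51 and 1.52, against a median of 2.61 over 4139 genes. CG10962 had 1.65, 1.72 and 1.88 in the 3 pairs, a flatter pattern than that of LManV. The slides of dlg1 and Cyp9b2 also differed from LManV. On slide 30 they had 0.23 and 0.56 against 1.53 for LManV, and on slide 28 0.32 and 0.24 against 1.45. On slide 29 they had 2.11 and 1.75 against 1.14. The measure depends on the size of a ratio as well as on its pattern. The genes most like Amy-p were CG6271, a predicted lipase gene, Snm1 and CG7139, with differences of 0.678, 0.696 and 0.718 against a median of 1.45. CG6271 had pair ratios of 0.44, 0.24 and 1.56, highest in pair 3 and lowest in pair 2, as Amy-p had. This likeness is over 6 slides of 3 pairs and is a description.

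Other genes that handle sugars were read from a list of digestive, glycan-trimming, glycogen, transport and sugar-sensing genes. Of 20 on the array 19 were tested, and 0 passed the adjusted threshold in either direction (smallest limma adjusted p = 0.514). Of the 19, 9 had a positive and 10 a negative mean, with a median of 0.00, the same as over all rows. Under an unadjusted p of 0.05 there were 0 positive and 2 negative genes of 19, against 8.05% of all rows, so the list held about as many as the table at large.

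Those 2 were Glyp, the glycogen phosphorylase gene, and daw, the gene of an Activin-type ligand tied to sugar sensing in the fly. Glyp had -0.25, -0.59 and -0.81 in the 3 pairs, a mean of -0.55 ± 0.281 (SD, n = 3), and was negative on 6 of 6 slides (limma adjusted p = 0.514). The pair ratios of daw were -0.68, -0.90 and -0.13, a mean of -0.57 ± 0.399 (SD, n = 3), with 5 of 6 slides negative (limma adjusted p = 0.592). The sugar-responsive transcription factor gene sug followed at -0.53 ± 0.456 (SD, n = 3). All 19 means lay between -0.57 and 0.30.

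Among 8 genes of glycan trimming and lysosomal breakdown, 4 were positive and 4 negative, with a median of 0.02. GCS2alpha, of the glucosidase that trims glucose from new glycoproteins, had -0.28 ± 0.136 (SD, n = 3) and was negative on 6 of 6 slides. The Golgi mannosidase gene alpha-Man-IIa had -0.19, alpha-Man-Ib -0.28 and the hexosaminidase gene fdl 0.25. The beta-galactosidase gene Ect3 had the highest mean, 0.30 ± 1.01 (SD, n = 3), which came from 1.45 in pair 1 against -0.40 and -0.15 in pairs 2 and 3. Treh, whose trehalase splits the blood sugar trehalose, had 0.23 ± 0.152 (SD, n = 3). It was the only gene of the list's digestive group with a probe named for it alone. The list thus measured no amylase or maltase gene beyond the members.

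**Figure D4:**
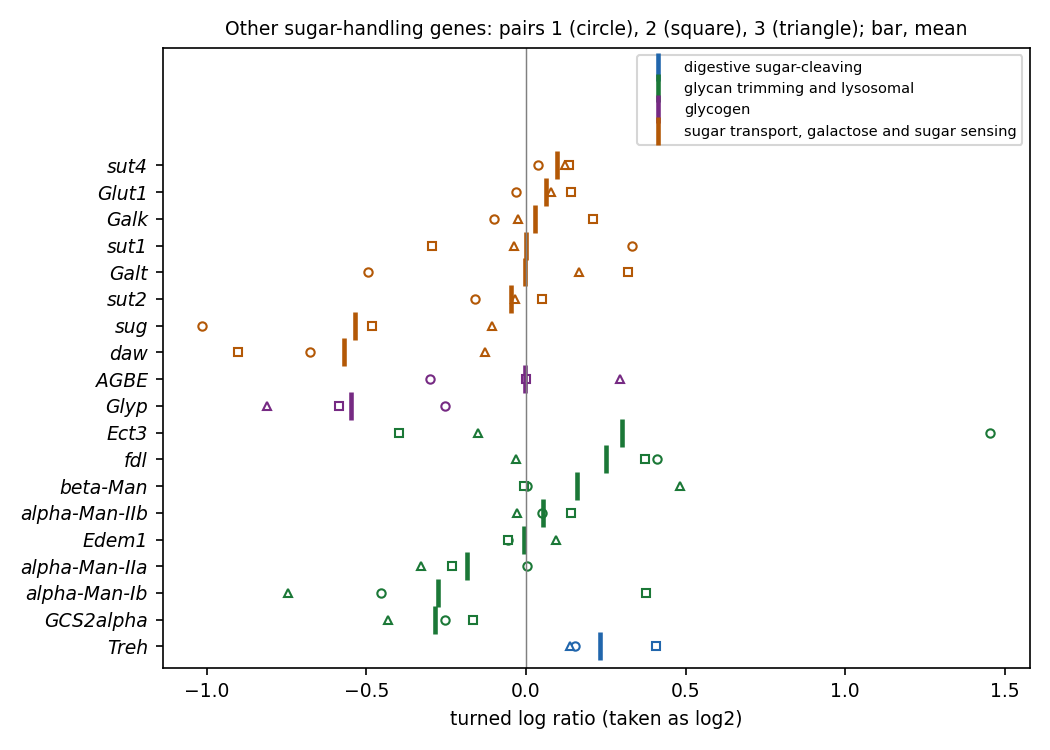
Turned log ratio, taken as log2, of the 19 tested genes of the sugar-handling list. Circles, squares and triangles are pairs 1, 2 and 3, short bars are means of the 3 pairs, and colours give the role. Means run from -0.57 for daw to 0.30 for Ect3, all smaller in size than those of LManV and Amy-p.

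Because whole RNA extracts were compared, fewer cells of a type and less RNA per cell cannot be told apart. Of 6 tested gut genes 3 were positive and 3 negative, with a median of -0.14. The gut lipase gene mag stood at 1.14, Peritrophin-A at 1.12 and Muc68D at 0.02. The gut protease gene yip7 stood at -0.88, Jon65Aiii at -0.81 and Jon65Aiv at -0.30, and these 3 were negative in all 3 pairs. An unadjusted limma p under 0.05 was found for 2 positive and 2 negative gut genes, against 8.05% of rows, and 0 passed the adjusted threshold. All 6 tested muscle genes had positive means, against 50.1% of rows, with a median of 0.42, from 0.08 to 0.65. By p-value bt led (0.55, limma adjusted p = 0.461). Of the 6, 4 were positive in all 3 pairs, whereas Prm had -0.31 in pair 3 and sls -0.61 in pair 2. Of 3 fat body genes 1 was positive and 2 negative, with a median of -0.59, from -0.91 to 0.06 (Tps1, -0.59). Of 3 neural genes 1 was positive and 2 negative, with a median of -0.19, from -0.32 for nSyb to 0.22. Of 13 cuticle genes 8 were positive and 5 negative, with a median of 0.22, from -0.44 to 1.88 (Cpr72Ea, 0.65). The part of tissue composition in the ratios of LManV and Amy-p was not tested.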

How the data were processed

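Per the labels, each sample is 1 of 3 spot sets on a 2-colour slide, and slides are paired as dye flips. The authors deposited 18 columns of log ratios, taken here as log2: values ran from -16.02 to 13.21, while a natural log of a 16-bit signal cannot pass 11.09. The lowest value also passes 16, the limit for log2, so the log base is an unsettled inference, and scanning, background correction, normalisation, dyes and the direction of the ratio are not given in the sources used here. Column medians lay between -0.69 and 0.35, and 4860 to 5149 probes had a value in a column. Signal over background was not used here, and the number of arrays limits precision.

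Probes with 1 annotated gene (4955, of which 4876 matched the reference by identifier) were named, 85 had several genes and 580 had none. Spot sets were averaged, slides centred on their median, probes of a gene averaged, slides with cornmeal RNA in channel 1 turned, and the slides of a pair averaged. Pair ratios of the 4723 rows complete in all 3 pairs were tested against 0 with limma 3.58.1 in R 4.3.3 (two-sided, Benjamini-Hochberg over all rows, threshold 0.05). Pair differences were tested by limma's F statistic for the pair term, fitted to the 6 slides after turning together with an orientation term, and unturned pair means tested the channel effect. The pairing comes from the labels, which name each flip partner.

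All member genes were named. From the sugar-handling list the rule took genes past the adjusted threshold and the 8 with the smallest p. For members with a mean over 1 in size it took the 3 genes with the smallest root-mean-square difference, and from each marker list the gene with the smallest p. Ect3, Prm, sls, TwdlF, the gut genes other than mag and the neighbouring genes were named after their values were seen. Members and lists were chosen with earlier results of these data known. Plots were made in Python 3.11.15 (matplotlib 3.10.9).

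The fits were tested on simulated data drawn with limma's moderated variances of these rows, which shrink those of the most variable rows. A diet change of 1 was given to 100 genes, of which 68% passed the adjusted threshold. A change of 2 in 100 more was found for 96%. Among the 4723 rows tested, the changed ones included, 13 rows without a change also passed. The changed genes were drawn at random. Power for a gene as variable as LManV (SD 1.12, against a median of 0.22 over all rows) was not tested. Planting many changed rows also eases the adjusted threshold, which 0% of rows passed in the real data. A difference of 8 between pairs was found for 99% of 100 genes, with 9 unchanged rows. LManV spanned 2.21 between pairs and Amy-p 1.94, and recovery of spans of that size was not tested.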

Additional observations from a re-analysis of the deposited data

Results flagged for a closer look

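The lowest of the 9 deposited Mal-A5 values on slides with cornmeal RNA in channel 1, -1.63 in spot set 1 of slide 3, lay apart from the others. Its gap to the nearest value was 0.496 of the range of the 9, just past the 95% critical value of Dixon's test. The other spots of that slide were 0.54 and -0.55. That spot set had the lowest column median of the 18, -0.69. Minus the median of each set, the 3 spots of slide 3 were -0.94, 0.79 and -0.83, so the flagged spot no longer stood alone. Over 15 such groups of values for the 5 genes this was the 1 group past its critical value. Chance passes about 1 in 20 groups of independent values, which repeat spots of a slide are not.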

How the results depend on the processing

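No member passed the adjusted threshold under any alternative run. LManV was positive in 14 of 15 alternatives and Amy-p in 15 of 15. Without 1 pair LManV lay between 1.76 and 2.87 and Amy-p between 0.57 and 1.54, and their lowest limma adjusted p over the alternatives were 0.0575 and 0.301. Had the authors already turned the values, LManV would stand at -0.064, Amy-p at 0.18, Amyrel at 0.29 (unadjusted p = 0.043, adjusted p = 0.526 in limma), Mal-A5 at -0.073 and the sugar-handling median at -0.0399. No row would then differ between pairs past the adjusted threshold in limma (0, with 184 at an unadjusted p under 0.05).

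Means near 0 changed sign. Without 1 pair Amyrel ran from -0.0093 to 0.0876, LManII from -0.0172 to 0.20, Mal-A5 from -0.0257 to 0.22 and the sugar-handling median from -0.0407 to 0.0189. Taking the median over spot sets turned LManII to -0.0109 and the channel effect of Mal-A5 to 0.0207. Channel effects without 1 pair ran from -0.12 to 0.37 for Amy-p, from -0.019 to 0.16 for LManII and from -0.27 to 0.27 for LManV, which stood at 0.095 with slides scaled to a common spread.

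With the 6 slides as units, 20 rows passed for diet with the flip pair as a replicate block (correlation -0.089) and 1 without a block. Of the 20, 19 had an adjusted p between 0.04 and 0.05, so the count is not stable. In these fits of 6 slides, which count repeat hybridisations as replicates, LManV had limma adjusted p of 0.0575 and 0.0705. On the pair ratios the t statistic with no shared variance gave 0 rows (324 at an unadjusted p under 0.05). In that t-test LManV had an unadjusted p of 0.0673 and an adjusted p of 0.742, and Amy-p 0.206 and 0.803. The smaller p of LManV in the main fit thus rested on variance shared between rows. Rows past the adjusted threshold for the channel effect numbered 2 with the median of spot sets, 2 without centring, and 0 to 12 without 1 pair. For pair differences 5 rows passed, against 26 with the median of spot sets, 12 without centring, 108 among probes with all 18 values, and 0 to 57 without 1 pair. The causes were not tested. Signal over background was not used here.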
